A study of Mus musculus with 16 samples.

Results

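The 9 genes described here encode proteins that deposit, loosen or read nucleosomes. Of these, *Chaf1b*, *Hmgn1*, *Brwd1* and *Morc3* lie in a segment of mouse chromosome 16 that Ts1Rhr mice carry in 3 copies. The other 5, *Chaf1a* (chromosome 17), *Rbbp4* (4), *Asf1b* (8), *Hmgn2* (4) and *Hmgn3* (9), stay at 2 copies and encode binding partners or family members of the trisomic set. The genes were chosen by name, and every probe whose annotated gene symbol is one of them was taken: 12 of the 25697 probes of the array. These stand for 8 of the 16593 genes with a probe, since none of them bears the symbol *Rbbp4*, which is therefore not measured here. A detection filter left 10 of the 12 probes, for 7 of the 9 genes, among 6063 genes in all.

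RNA came from primary keratinocytes of newborn pups of the FVB/N strain, measured on 16 one-color Illumina MouseRef-8 bead arrays. Ts cells carry the Ts1Rhr segmental trisomy, bred onto FVB/N from another strain, and WT cells are euploid. Ts-TPA and WT-TPA cultures received TPA (12-O-tetradecanoylphorbol-13-acetate, which switches on protein kinase C) at 0.2 μM during 12 h, and Ts-NT and WT-NT cultures had no treatment, with 4 arrays in each group. Each keratinocyte line was made from a single pup, and treated and untreated arrays of 1 replicate number were paired as 1 culture, so that 8 cultures stand behind the 16 arrays. In a bulk culture fewer cells of a type and less RNA per cell cannot be told apart.

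Nucleosomes are rebuilt behind each replication fork by chromatin assembly factor 1 (CAF-1). *Chaf1a* encodes its large subunit, which binds the sliding clamp PCNA, *Chaf1b* its WD repeat subunit, and *Rbbp4* the histone-binding subunit that CAF-1 shares with several deacetylase and methyltransferase complexes. ASF1 proteins, among them the product of *Asf1b*, hand newly made histones H3 and H4 to CAF-1. HMGN proteins (*Hmgn1*, *Hmgn2*, *Hmgn3*) bind the nucleosome itself, loosen its packing and compete with linker histones. *Brwd1* encodes a bromodomain and WD repeat protein that binds acetylated histones, known in mice for its part in B lymphocyte and germ cell development. *Morc3* encodes an ATPase that reads methylated histone H3 and is found at PML nuclear bodies.

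The arrays of the genotypes differed before any normalization. Median raw signals were 228 to 274.8 in Ts-TPA and 160 to 172 in WT-TPA, and 198 to 231 in Ts-NT against 156.1 to 170 in WT-NT. The array background therefore goes with the genotype, and the 2 cannot be told apart in signals near background. Of 12 keratinocyte markers on the array 10 were detected on all 16 arrays, while *Krt1* and *Krt15* were detected on none. Of 14 fibroblast markers, *Vim*, *Sparc* and *Col5a1* were detected on all 16 arrays and *Pdgfra*, *Pdgfrb*, *Lum* and *Postn* on none. Their summed raw signal ran between 5043 and 6764 in Ts-TPA and between 3533 and 4686 in WT-TPA, and between 4760 and 5802 in Ts-NT against 3457 and 4287 in WT-NT. The sums did not overlap, but the mean normalized signal of the tested markers did (6.56 to 7.36 in Ts-NT, 6.39 to 6.92 in WT-NT). Relative to the median difference of all genes, 6 of the 7 tested fibroblast markers were higher in Ts-NT than in WT-NT (median 0.53). With TPA 4 of 7 were higher in Ts (median 0.18), and 0 were called in either treatment. Raw sums of 8 immune and endothelial markers, 6 of them detected on no array, also did not overlap between genotypes in either treatment. Untreated they ran between 2572 and 3015 in Ts-NT and between 2102 and 2293 in WT-NT. These raw sums include array background and give no share of a cell type. Of 6 melanocyte markers 5 (*Dct*, *Mitf*, *Mlana*, *Pmel* and *Tyrp1*) were detected on all 16 arrays. Their summed raw signal ran between 12016 and 24640 in WT-NT, and the other groups lay within that range. The part of these cell types in the results was not tested. After normalization the median difference of all genes, Ts minus WT, was −0.20 with TPA and −0.15 untreated on the log2 scale, so differences between genotypes are given relative to that median. The limma p tests the fitted difference before this step. All values below are on a log2-like scale after a variance stabilizing model, and a gene was called when a probe had an adjusted p below 0.05 (limma, Benjamini-Hochberg over all probes). A level on this scale belongs to its probe and is not compared between genes.

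Most members with a probe were detected on all 16 arrays, though not all lay far above background. The probes of *Chaf1b*, *Hmgn1*, *Morc3*, *Hmgn2* and both of *Hmgn3* had a detection p of 0.01 or less on all 16 arrays, and that of *Chaf1a* on 15. In WT-TPA, where array backgrounds were 133 to 144, the lowest raw signals were 221 for *Chaf1b* and 216 for *Chaf1a*. *Brwd1* lay near the limit: its 3 probes past the filter, numbered from the brightest, were detected on 12, 14 and 9 arrays, and its last probe on none. *Asf1b* was detected on 2 arrays, WT-TPA replicate 1 and WT-NT replicate 1, and on none of the 8 Ts arrays. Its raw signal was 173 to 263 in Ts-TPA and 149 to 187 in WT-TPA, and 200 to 240 in Ts-NT and 141 to 192 in WT-NT. Background probes on the same arrays had medians of 187 to 219, 133 to 144, 164 to 188 and 131 to 140 in the same order of groups, so the *Asf1b* values lie near the array background and no difference is given for this gene.

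No member was called between genotypes. Among all genes 0.066% were called in Ts-NT against WT-NT (4 of 6063) and 0.0165% in Ts-TPA against WT-TPA (1 of 6063), and 0% when the treated and untreated arrays of a culture were averaged first, a fit added after seeing the data. At an unadjusted p below 0.05 the counts were 927, 1053 and 1299 genes (15.3%, 17.4% and 21.4%), and 0 of the 7 members in each. These p test the difference before the median of all genes is subtracted. With centred arrays the unadjusted limma p of the brightest *Brwd1* probe was 0.0205 untreated and 0.0192 in culture means. That of *Brwd1* probe 3 was 0.00885 with TPA and 0.0435 in culture means, and that of *Chaf1b* 0.0443 in culture means. All other member values there were above 0.05, no member was called, and genes below 0.05 in that fit were not counted. When replicate number entered as a block, 96 untreated and 141 TPA genes were called, 91 and 136 of them lower in Ts, and again no member. In this block fit the unadjusted limma p untreated was 0.0243 for *Chaf1b*, 0.0320 for the brightest *Brwd1* probe and 0.0445 for *Hmgn1*. With TPA it was 0.0242 for *Hmgn2* and 0.0498 for *Hmgn1*. Relative to all genes, 3 of 4 trisomic members were higher in Ts in either treatment, with a median of 0.31 with TPA and 0.44 untreated, and 2 of the 3 measured disomic members, with 0.02 and 0.17. Of the other genes of the trisomic segment 10 of 23 passed the filter. Relative to the median, 8 of these 10 were higher in Ts-TPA (median 0.17) and 10 of 10 in Ts-NT (median 0.24), none of them called. The study displayed *Chaf1b*, *Brwd1* and *Morc3* from these same arrays and picked *Chaf1b* for knockdown, so the values here are not independent evidence of their direction. It also measured *Chaf1b* by qPCR and listed a higher level in Ts than in WT. Knockdown of *Chaf1b* in Ts cells gave no significant change in EdU labeling of new DNA after TPA.

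**Figure D1:**
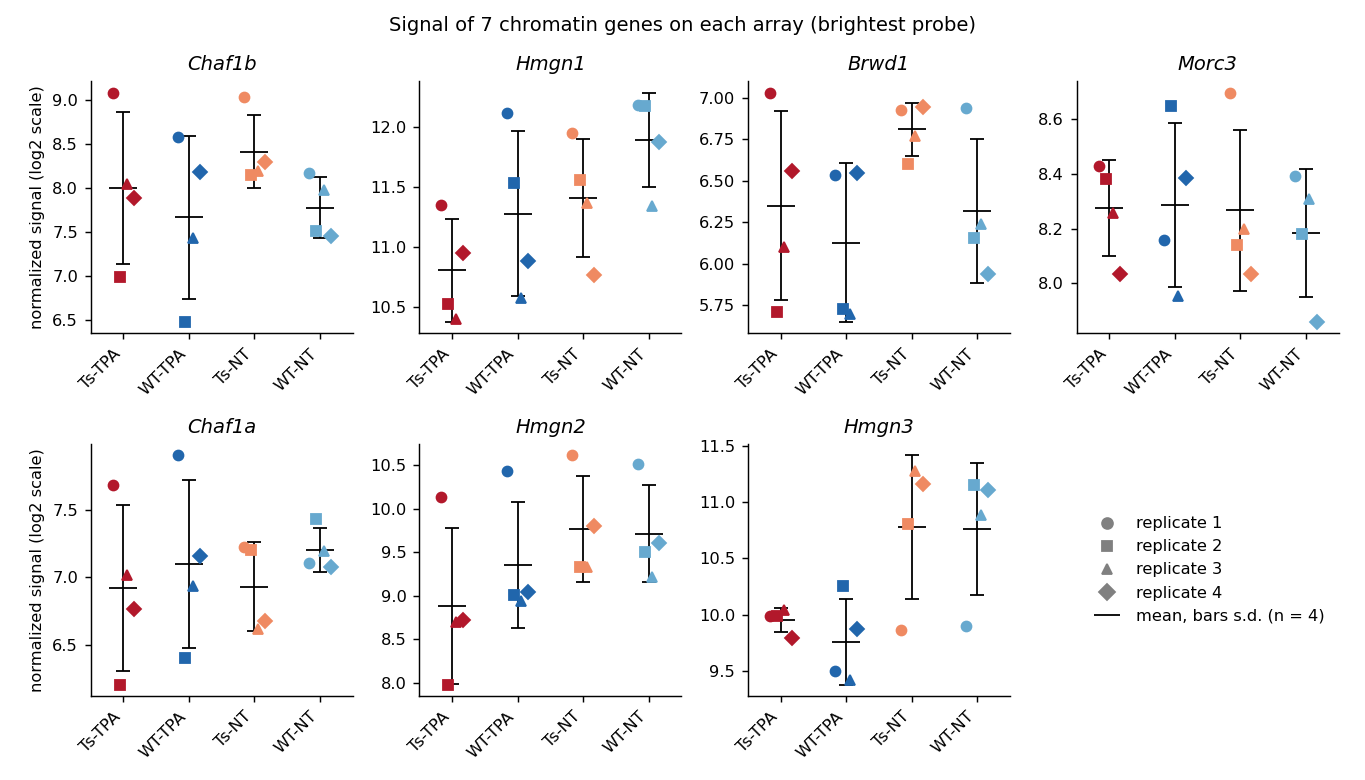
Normalized signal (log2 scale) of the brightest probe of each of the 7 measured genes on the 16 arrays. Marker shapes give the replicate number, and bars are mean ± s.d. of the 4 arrays of a group. *Hmgn3* sits near 10 in both TPA groups and near 11 in untreated arrays other than replicate 1, while groups of different genotype overlap for every gene.

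*Chaf1b* had the highest relative difference between genotypes of the members in untreated cells. Its signal was 9.03, 8.15, 8.19 and 8.30 on the Ts-NT arrays of replicates 1 to 4, against 8.17, 7.52, 7.98 and 7.46 on the WT-NT arrays. Each Ts-NT array was above the WT-NT array of its number, and the groups overlapped only by the narrowest margin, the lowest Ts-NT value lying 0.02 below the highest WT-NT value. Relative to the median of all genes the difference was 0.79, or 1.73-fold (fitted 0.64 ± 0.42 s.e., adjusted p = 0.548, and 0.194 with the replicate block). The 95% interval of the relative difference, −0.09 to 1.67, holds both 0 and 0.58, the log2 of a ratio of 3 to 2. The untreated value also depended on the scaling, at 0.85 with neqc, 0.52 by quantile normalization and 0.51 in the authors' values. With 1 array left out it spanned 0.61 (without Ts-NT replicate 1) to 0.90 (without WT-NT replicate 1). After TPA the arrays read 9.09, 6.99, 8.05 and 7.89 in Ts-TPA and 8.58, 6.48, 7.43 and 8.18 in WT-TPA. Replicates 1 and 2 of either genotype bounded the range, and the genotypes overlapped widely. The relative difference was 0.53 (fitted 0.34 ± 0.42, adjusted p = 0.749), with Ts above WT in 3 of 4 pairs. Single arrays moved this value, which was 0.12 without WT-TPA replicate 2, 0.23 without Ts-TPA replicate 1, and 0.82 and 0.85 without WT-TPA replicate 1 and Ts-TPA replicate 2. It was 0.58 with neqc (limma's background correction from detection p, then quantile normalization), 0.32 by quantile normalization and 0.30 in the authors' values. By mean signal the groups ran Ts-NT, Ts-TPA, WT-NT and WT-TPA from high to low, and each overlapped its neighbor.

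*Chaf1a*, the disomic partner, lay closer to the median of all genes. Its signal was 7.23, 7.21, 6.62 and 6.68 in Ts-NT against 7.11, 7.43, 7.20 and 7.08 in WT-NT, and 7.69, 6.20, 7.02 and 6.77 in Ts-TPA against 7.91, 6.40, 6.94 and 7.16 in WT-TPA. In each pair of groups 1 of 4 Ts arrays was above the WT array of its number. Relative differences were 0.02 with TPA (adjusted p = 0.824) and −0.12 untreated (adjusted p = 0.751), and their intervals ran from −0.63 to 0.66 and from −0.77 to 0.53. A log2 shift common to all probes of an array cancels in the difference of both subunits, but an additive raw background does not. The raw signal of *Chaf1a* was 255 to 353 in Ts-NT on array backgrounds of 164 to 188, and 249 to 305 in WT-NT on 131 to 140. The difference compares 2 probes and is no ratio of transcripts. *Chaf1b* minus *Chaf1a* averaged 1.09 ± 0.25 in Ts-TPA and 0.57 ± 0.39 in WT-TPA (s.d., n = 4), and 1.49 ± 0.38 in Ts-NT against 0.58 ± 0.43 in WT-NT. The groups overlapped in both treatments, at a mean difference of 0.52 with TPA and 0.91 untreated. Between arrays of 1 number the value was higher in Ts in 4 of 4 pairs of either treatment, by 0.73, 0.71, 0.53 and 0.10 with TPA and by 0.75, 0.86, 0.79 and 1.24 untreated, and also in 4 of 4 pairs under each of the 3 other normalizations. No test was made of this, and neither such pairs of arrays nor overlap were counted over all pairs of genes. The size depended on the scaling. The untreated change was 0.96 with neqc, but 0.56 both by quantile normalization and in the values as the authors normalized them, where the groups did not overlap. With neqc, where the treated groups did not overlap, the TPA value was 0.62. It was 0.34 by quantile normalization and 0.30 in the authors' values.

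With TPA neither CAF-1 subunit passed the test. *Chaf1b* changed by −0.41 ± 0.24 in Ts (3 of 4 cultures lower, adjusted p = 0.512) and by −0.11 ± 0.28 in WT (2 of 4, adjusted p = 0.862). *Chaf1a* changed by −0.01 ± 0.27 and −0.10 ± 0.26. Both subunits had their lowest change in replicate 2 of either genotype, at −1.15 in Ts and −1.03 in WT for *Chaf1b*, and −1.03 in WT for *Chaf1a*. In a list of CAF-1, ASF1 and other histone chaperone genes that includes both subunits, 14 of 24 passed the filter and 0 of 14 were called in any comparison. *Pcna*, the clamp that brings CAF-1 to replicating DNA, differed by −0.77 with TPA and −0.81 untreated between Ts and WT relative to the median (adjusted p = 0.338 and 0.393).

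Promoters of both CAF-1 subunits and of the trisomic and a disomic HMGN gene are shown because these pairs are set against each other here. The stretches are the 120 bases before the annotated start (RefSeq, GRCm38.p6), with CCAAT and GGCGGGA, an E2F-type word, in capitals on either strand (ATTGG and TCCCGCC when reversed). The words were chosen after the sequences were seen, and they do not overlap each other. The stretches lie at chr16:93883781-93883900 (+ strand) for *Chaf1b*, chr17:56040296-56040415 (+) for *Chaf1a*, chr16:96127726-96127845 (−) for *Hmgn1* and chr4:133967992-133968111 (−) for *Hmgn2*.
Chaf1b: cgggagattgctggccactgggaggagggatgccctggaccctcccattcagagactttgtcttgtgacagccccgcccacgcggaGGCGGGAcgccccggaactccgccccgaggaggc
Chaf1a: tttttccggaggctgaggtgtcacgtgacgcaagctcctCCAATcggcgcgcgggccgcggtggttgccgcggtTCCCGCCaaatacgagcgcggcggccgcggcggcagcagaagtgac
Hmgn1: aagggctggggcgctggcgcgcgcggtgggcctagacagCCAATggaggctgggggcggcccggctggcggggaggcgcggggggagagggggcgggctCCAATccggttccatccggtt
Hmgn2: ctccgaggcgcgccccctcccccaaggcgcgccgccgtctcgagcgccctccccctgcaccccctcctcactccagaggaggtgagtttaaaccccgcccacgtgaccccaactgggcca
GGCGGGA begins 34 bases before the start of *Chaf1b* and, on the reverse strand, 46 bases before that of *Chaf1a*. CCAAT begins 81 bases before the start of both *Chaf1a* and *Hmgn1*, with a second copy in *Hmgn1* at 21 bases. The *Hmgn2* stretch holds neither word. Of all 32851 promoter stretches of this length 21.3% hold CCAAT and 6.37% hold GGCGGGA, and a match is no proof of a bound site. The tables used had a promoter for 8 of the 9 members.

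*Hmgn1* was the only trisomic member below the median of all genes in Ts. It read 11.95, 11.56, 11.36 and 10.77 in Ts-NT against 12.18, 12.17, 11.34 and 11.87 in WT-NT, and 11.35, 10.52, 10.40 and 10.95 in Ts-TPA against 12.11, 11.53, 10.57 and 10.88 in WT-TPA. Ts was below WT in 3 of 4 pairs in either treatment, while the groups overlapped. The relative difference was −0.27 with TPA (95% interval −0.96 to 0.42, adjusted p = 0.521) and −0.33 untreated (−1.02 to 0.36, adjusted p = 0.558). Both intervals hold 0, and both end below 0.58, the log2 of 3 to 2. They cover the spread between arrays and not the choice of scaling, under which the untreated value was between −0.27 and −0.33 in the 4 sets of normalized values and the TPA value between −0.16 and −0.27. With 1 array left out the TPA value spanned −0.47 (without WT-TPA replicate 3) to −0.01 (without WT-TPA replicate 1), and the untreated one −0.49 to −0.13 (without WT-NT replicate 3 and Ts-NT replicate 4). Raw signals of 1374 to 5757 lay far from background. *Hmgn1* and *Hmgn2* have many processed copies of near-identical sequence in the mouse genome, so which copies a probe reads is uncertain.

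The disomic HMGN genes showed no difference between genotypes that passed the test. *Hmgn2* differed by −0.27 with TPA (adjusted p = 0.641) and 0.21 untreated (adjusted p = 0.972) relative to the median. Ts-TPA was below WT-TPA in 4 of 4 pairs, though the groups overlapped, and the adjusted p with the replicate block was 0.168. The brighter *Hmgn3* probe differed by 0.39 and 0.17 and the other by 0.09 and 0.04, with adjusted p of 0.811 or above. *Hmgn1* minus *Hmgn2* within an array averaged 1.92 in both TPA groups, and 1.64 ± 0.59 in Ts-NT against 2.18 ± 0.41 in WT-NT. *Hmgn1* minus *Hmgn3* averaged 0.85 ± 0.48 in Ts-TPA against 1.52 ± 0.74 in WT-TPA, and 0.63 ± 1.08 in Ts-NT against 1.13 ± 0.80 in WT-NT, with overlap throughout. In Ts-NT both values were below those of the WT-NT array of the same number in 4 of 4 pairs. After TPA the Ts minus WT differences of *Hmgn1* minus *Hmgn2* were −0.46, 0.02, 0.07 and 0.38, higher in Ts in 3 of 4 pairs. Under each of the 3 other normalizations this value was higher in 2 of 4. *Hmgn1* minus *Hmgn3* was higher in Ts in 1 of 4 pairs.

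**Figure D2:**
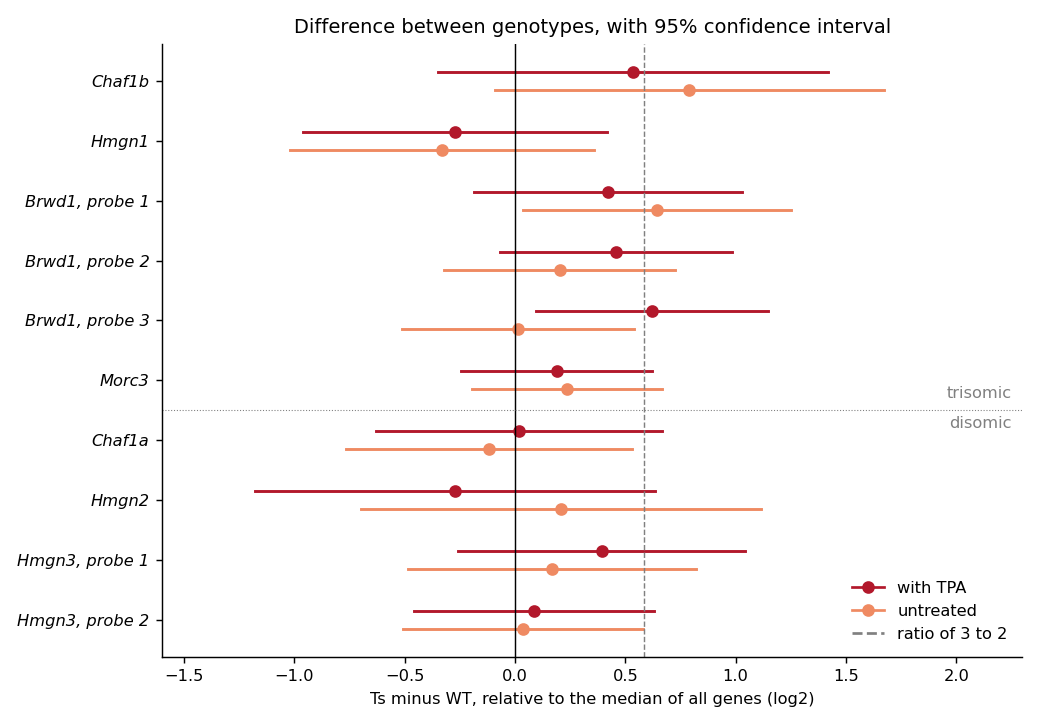
Difference between Ts and WT relative to the median of all genes (log2), for each probe past the filter, with TPA and untreated. Points are differences and lines their 95% confidence intervals, with a dashed line at 0.58, the log2 of a ratio of 3 to 2. *Chaf1b* and the *Brwd1* probes lie above 0, *Hmgn1* lies below it and its intervals end short of the dashed line.

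The clearest TPA responses among the members were those of the HMGN genes. *Hmgn3*, which is known to act in transcription in the endocrine pancreas and eye of mice, fell in WT by 1.00 ± 0.21 in its brighter probe (adjusted p = 0.0402) and by 0.88 ± 0.18 in the other (adjusted p = 0.0414). It was the 1 member called there, where 2.66% of all genes were. The brighter probe read 9.50, 10.25, 9.42 and 9.87 in WT-TPA against 9.90, 11.15, 10.89 and 11.11 in WT-NT. Both probes were lower with TPA in 4 of 4 WT cultures, as were 16.4% of all genes, and the groups overlapped because of WT-NT replicate 1. The call was lost in a fit without culture pairs (adjusted p = 0.253) and without replicate 2, 3 or 4 (0.112, 0.179 and 0.226), and held without replicate 1 (0.0133).

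In Ts the same gene read 9.99, 9.99, 10.04 and 9.79 in Ts-TPA against 9.86, 10.80, 11.27 and 11.16 in Ts-NT. The other probe separated the groups fully, by 0.24, a separation not counted over all genes. Ts-NT replicate 1 was again the low untreated array in both probes. The changes were −0.82 ± 0.26 (adjusted p = 0.211) and −0.88 ± 0.25 (adjusted p = 0.162). No member was called in Ts, where 1.06% of all genes were, and 3 of 7 had an unadjusted p below 0.05 (*Hmgn1*, *Hmgn2* and *Hmgn3*), as had 932 of all 6063 genes (15.4%). The change of *Hmgn3* in Ts minus that in WT was 0.18 ± 0.35 in the brighter probe, with a 95% interval of −0.58 to 0.94.

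*Hmgn2* was lower with TPA in 8 of 8 cultures. In Ts it read 10.13, 7.98, 8.70 and 8.73 in Ts-TPA against 10.62, 9.33, 9.33 and 9.80 in Ts-NT, a change of −0.89 ± 0.22 (adjusted p = 0.107). In WT it read 10.44, 9.01, 8.94 and 9.04 in WT-TPA against 10.51, 9.51, 9.22 and 9.61 in WT-NT, a change of −0.36 ± 0.17 (adjusted p = 0.304). All 4 cultures of a genotype being lower was also seen for 14.6% of all genes in Ts and 16.4% in WT. The share of all genes lower in all 8 cultures was not counted. In both genotypes replicate 1 was the brightest array of its group and the groups overlapped. After quantile normalization *Hmgn2* was called in Ts (adjusted p = 0.0461). The change in Ts minus that in WT was −0.53 ± 0.27, with an interval of −1.11 to 0.05 and an adjusted p of 1.00. That fit did not pair the genotypes by replicate number, and a paired one was not run. For replicates 1 to 4 the changes were −0.48, −1.35, −0.63 and −1.08 in Ts. They were −0.07, −0.50, −0.28 and −0.57 in WT, so each Ts change was below the WT change of its number. How many genes do this was not counted.

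*Hmgn1* changed by −0.60 ± 0.24 in Ts (3 of 4 cultures lower, adjusted p = 0.338) and by −0.62 ± 0.20 in WT (4 of 4, adjusted p = 0.128). The fit of 1 mean TPA response over all 8 cultures was added after seeing the data. It called 11.5% of all genes, 290 higher and 407 lower, and 3 of the 7 members, the 3 HMGN genes. This fit counts the 8 cultures as independent. Arrays of 1 replicate number deviated together across genotypes, so fewer than 8 independent units may stand behind its p-values. *Hmgn3* fell by 0.91 ± 0.17 and 0.88 ± 0.15 (adjusted p = 0.00385 and 0.0022), *Hmgn2* by 0.62 ± 0.15 (adjusted p = 0.0161) and *Hmgn1* by 0.61 ± 0.15 (adjusted p = 0.0213). *Hmgn1* was lower in 7 of 8 cultures and *Hmgn3* in 7 and 8 of 8 by probe. Left out 1 at a time, *Hmgn2* and *Hmgn3* kept the call without each of the cultures, and *Hmgn1* lost it without WT replicate 3 or 4 or Ts replicate 2 or 3, at an adjusted p of 0.0515 to 0.0631. *Brwd1* was called as well without Ts replicate 1 or 4, through the third of its probes (adjusted p = 0.0426 and 0.0479, against 0.115 in all 8 cultures), so that 2 to 4 members were called. Without the detection filter *Hmgn1* and *Hmgn2* missed the threshold (adjusted p = 0.0752 and 0.0612). The test of a different TPA response in Ts and WT called 0% of all genes with limma, 278 genes had an unadjusted p below 0.05, and 0 were called under each of the 3 other normalizations. This test did not pair the genotypes by replicate number.

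**Figure D3:**
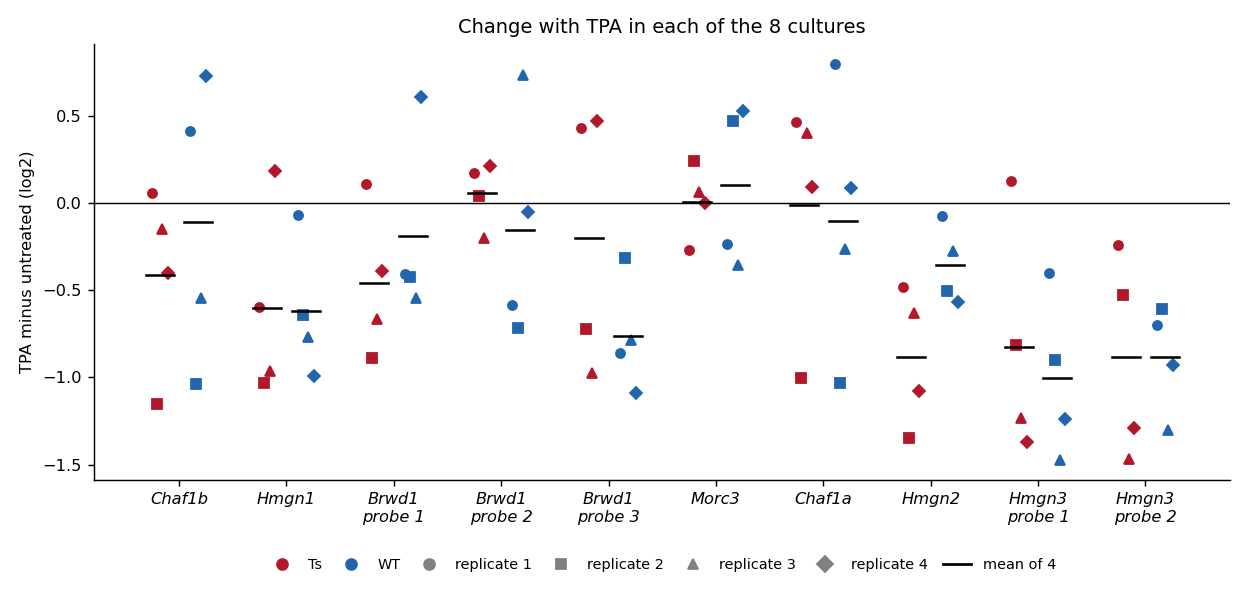
Change with TPA (TPA minus untreated, log2) of each probe past the filter in each of the 4 Ts and 4 WT cultures. Marker shapes give the replicate number and black lines the mean of 4. *Hmgn2* and the second *Hmgn3* probe lie below 0 in 8 of 8 cultures, while *Morc3* and *Chaf1a* scatter around 0.

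Of 8 HMG protein genes on the array 6 passed the filter, the 3 members included. In the mean response *Hmga2*, an architectural factor of embryonic and proliferating cells, rose by 0.86 ± 0.19 (adjusted p = 0.00992), the 1 of 6 that rose beside the 3 HMGN genes that fell. Its change within Ts was not called, at 1.08 ± 0.25 in Ts (adjusted p = 0.0797). Over the 6 genes the median change was −0.42 relative to the median of all genes. *Hmgb2*, which marks proliferating cells, differed by −0.80 with TPA and −0.81 untreated between Ts and WT relative to the median, with adjusted p of 0.403 and 0.477.

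The probes of *Brwd1* differed among themselves. The brightest read 6.92, 6.60, 6.77 and 6.94 in Ts-NT against 6.94, 6.15, 6.24 and 5.94 in WT-NT, so that 3 of 4 pairs were higher in Ts and WT-NT replicate 1 lay within the Ts-NT range. Relative to the median the 3 probes differed by 0.64, 0.20 and 0.01 untreated, with adjusted p of 0.501, 0.961 and 0.857, and the interval of the first ran from 0.03 to 1.25. With TPA they differed by 0.42, 0.46 and 0.62, each higher in 3 of 4 pairs (adjusted p = 0.758, 0.660 and 0.436). All 6 values were above 0, and none passed. These probes lie near background, and their size changed with the scaling: the untreated value of the brightest was 0.65 with neqc but 0.23 by quantile normalization and 0.25 as the authors normalized it. Its TPA value was 0.26, 0.09 and 0.16 in the same order, and 0.25 to 0.61 with 1 array left out (without Ts-TPA replicate 1 and 2).

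With TPA the third *Brwd1* probe changed by −0.76 ± 0.19 in WT. It read 5.65, 5.93, 5.20 and 5.28 in WT-TPA against 6.51, 6.25, 5.98 and 6.37 in WT-NT. These groups did not overlap, and the probe just missed the threshold (adjusted p = 0.0606), but it was detected on 1 of 4 WT-TPA arrays. The share of all genes whose groups do not overlap was not counted. In Ts the same probe changed by −0.20 ± 0.28, with 2 of 4 cultures lower. The other *Brwd1* probes changed by −0.46 and 0.06 in Ts and by −0.19 and −0.16 in WT, none called. Of 17 genes for BRWD, BAF and BET factors on the array 8 passed the filter. In the mean TPA response 2 of 8 fell, the BAF subunit genes *Smarca2* (by 0.49 ± 0.14, adjusted p = 0.0404) and *Smarcd2* (by 0.49 ± 0.14, adjusted p = 0.0336).

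*Morc3* lay at nearly the same level in all groups. Its group means were 8.28 ± 0.18 in Ts-TPA and 8.29 ± 0.30 in WT-TPA, and 8.27 ± 0.30 in Ts-NT and 8.19 ± 0.23 in WT-NT (s.d., n = 4). All groups overlapped. Relative to the median Ts differed from WT by 0.19 with TPA (95% interval −0.24 to 0.62) and by 0.23 untreated (−0.20 to 0.67), so that both 0 and the log2 of 3 to 2 lie inside. TPA changed it by 0.01 ± 0.20 in Ts and 0.10 ± 0.21 in WT. Among 10 of 12 genes for MORC and PML body proteins that passed the filter, 0 were called in any comparison.

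Complexes that share RBBP4 (NuRD, SIN3, PRC2, NURF and MuvB) had 16 of 23 genes past the filter, and 0 were called in any comparison. The lowest unadjusted p between genotypes was that of *Suz12*, a core subunit of PRC2, which differed by −0.37 with TPA and −0.43 untreated relative to the median (adjusted p = 0.242 and 0.276). Histone variant genes had 5 of 5 measured. In the mean TPA response 2 of them fell: *Cenpa*, the centromeric H3 variant, by 0.93 ± 0.15 (adjusted p = 0.00139), and *H2az1*, which encodes H2A.Z, by 0.57 ± 0.15 (adjusted p = 0.0243).

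Several members moved with the replicate number. *Chaf1b*, *Hmgn1* and *Hmgn2* were brightest on replicate 1 in all 4 groups, as were 7.93% of all genes. For *Hmgn2* replicate 1 exceeded the mean of the other 3 arrays by 1.66 in Ts-TPA and 1.44 in WT-TPA, and by 1.13 in Ts-NT and 1.06 in WT-NT. For *Chaf1b* the excess was 1.45, 1.22, 0.82 and 0.52 in the same order. *Hmgn3* ran the other way in untreated cells, 1.22 below the others in Ts-NT and 1.15 below in WT-NT, but 0.04 above in Ts-TPA and 0.35 below in WT-TPA.

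Genes of DNA replication and of mitosis moved on the same arrays. The mean signal of 30 DNA replication genes was higher on replicate 1 by 0.94 in Ts-TPA, 0.84 in WT-TPA, 0.54 in Ts-NT and 0.34 in WT-NT, and that of 12 genes of G2 and M phase by 1.61, 1.38, 0.61 and 0.55. *Chaf1a* on replicate 1 exceeded the other arrays by 1.02 in Ts-TPA and 1.07 in WT-TPA, and by 0.39 in Ts-NT and −0.12 in WT-NT. With TPA 1 of the 30 replication genes was called in WT, *Rfc4* of the clamp loader, which fell by 0.97 ± 0.22 (adjusted p = 0.0487), and 1 of the 12 mitotic genes, *Cdc20*, whose product triggers anaphase, which fell by 1.33 ± 0.26 (adjusted p = 0.0347). In the mean response 0 of 30 and 3 of 12 fell. The part of cell cycle state in the members' values was not tested.

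**Figure D4:**
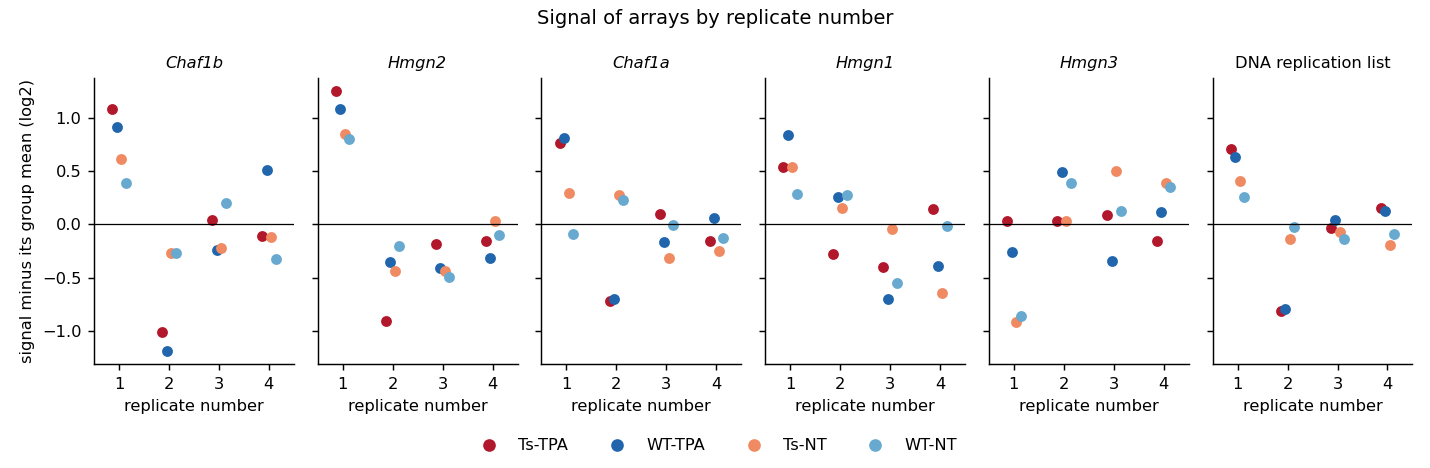
Signal of each array minus the mean of its group (log2) against replicate number, for 5 members and for the mean of 30 DNA replication genes. Colors give the group. Replicate 1 lies above 0 in all 4 groups for *Chaf1b*, *Hmgn2*, *Hmgn1* and the replication genes, and *Hmgn3* lies below 0 on replicate 1 of both untreated groups.

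Likeness of pattern was described by Pearson's r between the brightest probes of genes over the 16 arrays, which share cultures, replicate numbers and scaling. For *Chaf1a* the genes most alike were *Mcm6* (0.92) and *Mcm3* (0.89), subunits of the replicative helicase, and *Kif15* (0.89). For *Chaf1b* they were *Kif18a* (0.90), *Cdca2* (0.89) and *Zfp644* (0.89). For the brightest *Brwd1* probe, detected on 12 arrays, the closest was *Chaf1b* itself (0.86), before *Exosc8* and *Rpap2* (0.83 each). The other *Brwd1* probes, which differed from it above, did not enter this r. *Hmgn2* was closest to *Brat1* (0.94), *Tsen34* (0.94) and *Parp2* (0.93), *Hmgn1* to *Dhx30* (0.92), *Ube3c* and *Zfp574* (0.91 each). *Hmgn3* was closest to *Bex4*, *Mllt11* and *Fam177a* (0.87, 0.87 and 0.86), and *Morc3* to *Sft2d2*, *Pde8a* and *Wbp1l* (0.83, 0.83 and 0.81). Between members, r was 0.65 for *Chaf1a* with *Chaf1b* and 0.74 for *Hmgn1* with *Hmgn2*, against 0.19 for *Hmgn1* with *Hmgn3*.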

How the data were processed

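Keratinocyte RNA was measured on 16 arrays, 4 per group. The authors deposited a raw intensity and a detection p-value per probe and array, and log2 values normalized with vsn without a filter. For scanner software, slides and the authors' vsn and limma versions: not given in the sources used here. No column of another sample was present.

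Values start from the raw intensity. The vsn model (arsinh with an offset and factor per array, robust fit on 0.9 of probes, 7 rounds, 10 strata) was written anew in R 4.3.3 and tested on simulated data. Probes stayed in if, within 1 genotype, 4 or more of its 8 arrays had a detection p no higher than 0.01. Genes were named from the array's annotation (1719 probes had no symbol), and the brightest probe stood for a gene. limma 3.58.1 (statmod 1.5.0 for a random block) compared genotypes on 16 arrays without a block, and TPA within a genotype with cultures as blocks. p was adjusted over all probes, with a threshold of 0.05. Arrays with the same replicate number deviated together across genotypes (correlations of 0.24 to 0.57). The number therefore pairs arrays, but what it shares across genotypes is not given. Within a genotype the study's methods state that samples were paired, and equal replicate numbers were taken to mark 1 culture (correlations of 0.07 to 0.45, 1 of 8 under 0.1). Replicate 4 with TPA correlated slightly more with an untreated array of another number than with its own. The values were 0.09 against 0.07 in Ts and 0.21 against 0.19 in WT. No 2 arrays were identical. Alternatives were 3 other normalizations, other filters, blocks and left-out arrays.

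Named are the members, for each companion list up to 4 called genes or the 2 of lowest p, a part of which is given, and the 3 genes most like each member. Members and lists were chosen with earlier results of these data known. Since cultures come from separate pups, p-values measure the spread between cultures of this experiment, and 4 arrays per group limit their precision. Fits over both genotypes without the replicate block take cultures of the same number as independent.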

Additional observations from a re-analysis of the deposited data

Results flagged for a closer look

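Of 28 sets of 4 arrays (7 members in 4 groups), 2 held an array far from the others of its group by Dixon's criterion, where chance gives about 1 in 20. *Chaf1b* read 9.03 on Ts-NT replicate 1, against 8.15 to 8.30 on the other Ts-NT arrays. *Hmgn2* read 10.44 on WT-TPA replicate 1, against 8.94 to 9.04 on the other WT-TPA arrays. Both arrays bear replicate number 1, on which the genes of DNA replication were also brightest in all 4 groups.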

How the results depend on the processing

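Counts between genotypes depended on the model. Against 4 genes in Ts-NT versus WT-NT, 0 were called with neqc, without a filter, with a filter of 4 of 16 arrays, with culture as a random block, on the 8 arrays alone or with centred arrays, 96 with the replicate block and 11 with centring and the replicate block. The 4 were all lower in Ts, while quantile normalization gave 2 higher and 2 lower and the authors' values 2 higher and 4 lower. Against 1 gene in Ts-TPA versus WT-TPA, 2 were called with neqc, 0 with quantile normalization, the authors' values, the 8 arrays alone or centred arrays, 64 without the filter, 141 with the replicate block and 6 with centring and the replicate block. No member was called in any of these. For TPA in Ts, 26 genes in place of 64 were called without the replicate block and 99 with centred arrays, and 1 member with quantile normalization. For TPA in WT, 23 genes in place of 161, and 0 members, were called without the replicate block. The mean TPA response had 350 genes and 1 member called without the filter, in place of 697 and 3. The cause of these shifts was not tested.

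Leaving out 1 array or culture gave 0 to 3 genes in Ts-NT versus WT-NT (0 without WT-NT replicate 1), 0 to 45 in Ts-TPA versus WT-TPA (45 without Ts-TPA replicate 1), 24 to 85 for TPA in Ts (24 without replicate 4), 20 to 283 for TPA in WT (20 without replicate 4, 283 without replicate 1), with 0 to 1 member there, and 447 to 725 for the mean response, with 2 to 4 members. There *Brwd1* gained the call through the third of its probes without Ts replicate 1 or 4.

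Of the values of each member's brightest probe under all alternatives, 599 kept direction and side of the threshold, 10 lost the call, 1 gained it and 34 changed sign, all of these among values that were not called. *Chaf1a* in Ts-TPA versus WT-TPA was −0.040 with neqc and −0.019 with quantile normalization. For TPA in WT, *Chaf1b* was 0.031 and *Chaf1a* 0.017 with quantile normalization, and 0.020 and 0.0033 in the authors' values. The *Brwd1* difference in TPA response was 0.22 as a mean of probes. With 1 array or culture left out, relative values spanned −0.14 to 0.50 for *Hmgn3* and −0.045 to 0.46 for *Hmgn2* in Ts-NT versus WT-NT, and −0.63 to 0.068 for *Hmgn2* and −0.24 to 0.27 for *Chaf1a* in Ts-TPA versus WT-TPA. They spanned −0.071 to 0.40 for *Chaf1a* with TPA in Ts, −0.33 to 0.27 for *Chaf1b* and −0.35 to 0.28 for *Chaf1a* in WT, and −0.10 to 0.17 for *Chaf1a* in the mean response. For the difference in response they spanned −0.19 to 0.10 for *Morc3*, −0.18 to 0.46 for *Chaf1a*, −0.57 to 0.030 for *Chaf1b*, −0.20 to 0.25 for *Hmgn1*, −0.38 to 0.054 for *Brwd1* and −0.064 to 0.43 for *Hmgn3*.

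Signals of *Asf1b* and the dimmer *Brwd1* probes lie at or near background, which limits what their values can show. At a detection p of 0.05 *Asf1b* was detected on 5 arrays in place of 2.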
